A study of Mus musculus with 77 samples.

Results

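The livers compared here came from DIO-MASH mice treated for 24 weeks, 8 with semaglutide and 7 with vehicle, out of 77 livers sequenced in 10 groups. The members were taken from the treatment labels Semaglutide_24_w and Vehicle_24_w, and each library is 1 mouse. All 15 mice were male C57BL/6JRj that had been 5 to 6 weeks old when they were put on a diet rich in fat, fructose and cholesterol, which holds 40 kcal-% fat, 22% fructose, 10% sucrose and 2% cholesterol, and they had eaten it for months before treatment. A liver biopsy taken 4 weeks before treatment was used to select and randomise them, so each liver had been operated on before. The sources give the entry rule in 2 forms. In 1 form it is a steatosis score of 3, or a fibrosis stage above 1 with a steatosis score above 2. In the other it is a steatosis score of at least 2 with a fibrosis stage of at least 1. Semaglutide, a long-acting agonist of the GLP-1 receptor, was injected under the skin daily at 123 µg per kg, a dose reached by day 5, and the diet went on. Livers of 7 chow-fed mice given vehicle and of 8 mice returned from this diet to chow (chow reversal) at the same time are used for side-by-side levels, and the 8-week and 16-week groups for the effect over time. Mice are numbered 1 to 7 and 1 to 8 within the 2 main groups in the order of their records, and the numbers do not pair mice.

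A liver fed too much fat and sugar stores triglyceride in droplets, meets more oxidants and loses part of the gene programme that marks a mature hepatocyte. Oxidants and reactive lipids release the transcription factor NRF2 from its inhibitor KEAP1, and NRF2 then switches on genes for glutathione synthesis, NADPH supply and quinone reduction. Mature hepatocytes make serum proteins, break down amino acids through the urea cycle, turn cholesterol into bile acids and detoxify foreign compounds with cytochrome P450 and conjugating enzymes. In male mice, pulses of growth hormone keep a set of sex-biased liver genes on, among them those of the major urinary proteins.

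Levels are CPM, counts relative to the size of each library after scaling with TMM factors, which align the bulk of genes between libraries, and a gene was called changed at a Benjamini-Hochberg adjusted p under 0.05 in the quasi-likelihood test of edgeR, fitted over all 77 libraries. Vehicle libraries held 13947634 to 20290724 counts and semaglutide libraries 8883190 to 17661160. Semaglutide mouse 8 is the only one of the 15 from a second library series, and predicted genes took 4.04% of its counts against 1.28% to 2.13% in the other 14. Vehicle mouse 3 stood apart from the other vehicle livers on the second principal component, and its mitochondrial genes took 2.66% of counts. Semaglutide mouse 2 stood farthest along the first component, which held 30.3% of the variance. Its mitochondrial genes took 2.41% of counts, the lowest share of the 15 livers, and its TMM factor of 0.808 was also the lowest. Alb, the gene of serum albumin that defines liver tissue, was at 29299, 37551 and 42204 CPM at the lowest, median and highest of the vehicle mice and at 38815, 63147 and 87275 CPM in the semaglutide mice. Alb thus rose, with a log2 fold change of 0.73 (SE 0.11, edgeR adjusted p = 2.44e-06). Adipoq of adipocytes and Pnlip, Cpa1 and Try4 of the exocrine pancreas were at 0 in all 15 livers. They were 1 of 8 adipocyte and 3 of 8 pancreas markers, and other markers of both were present. The 2 pancreas markers tested summed to 10.1 to 18.8 CPM with vehicle and 6.15 to 21.7 CPM with semaglutide. The 4 adipocyte markers tested summed to 107 to 211 and 50.8 to 87.7 CPM. Glp1r, which encodes the receptor of semaglutide, had 0 to 4 counts per vehicle liver (9 in all) and 0 to 6 per semaglutide liver (17 in all), and no comparison was made at this depth. In whole liver, fewer cells of a type and less RNA per cell cannot be told apart.

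Of 14904 genes tested, 3624 (24.3%) differed between semaglutide and vehicle, 1603 higher (10.8%) and 2021 lower (13.6%), with a median log2 fold change of -0.01 over all genes. With library totals as the only scaling, the split was 511 higher and 4337 lower and the median of all genes moved by -0.23 on the log2 scale, so rises of that size or less rest on the scaling. Counts of higher members are therefore given with their value under library totals where it differs in balance. Those values are to be read beside the 511 higher and 4337 lower of all 14904 genes under that scaling, where 10.5% of calls were higher. The groups did not overlap in 443 genes that were lower (2.97%) and 171 that were higher (1.15%). Without semaglutide mouse 8, 3591 genes were called, 1587 higher and 2004 lower. The plot of shares by list covers 32 pathway lists, which had from 0 to 19 members higher and from 0 to 23 lower.

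**Figure D1:**
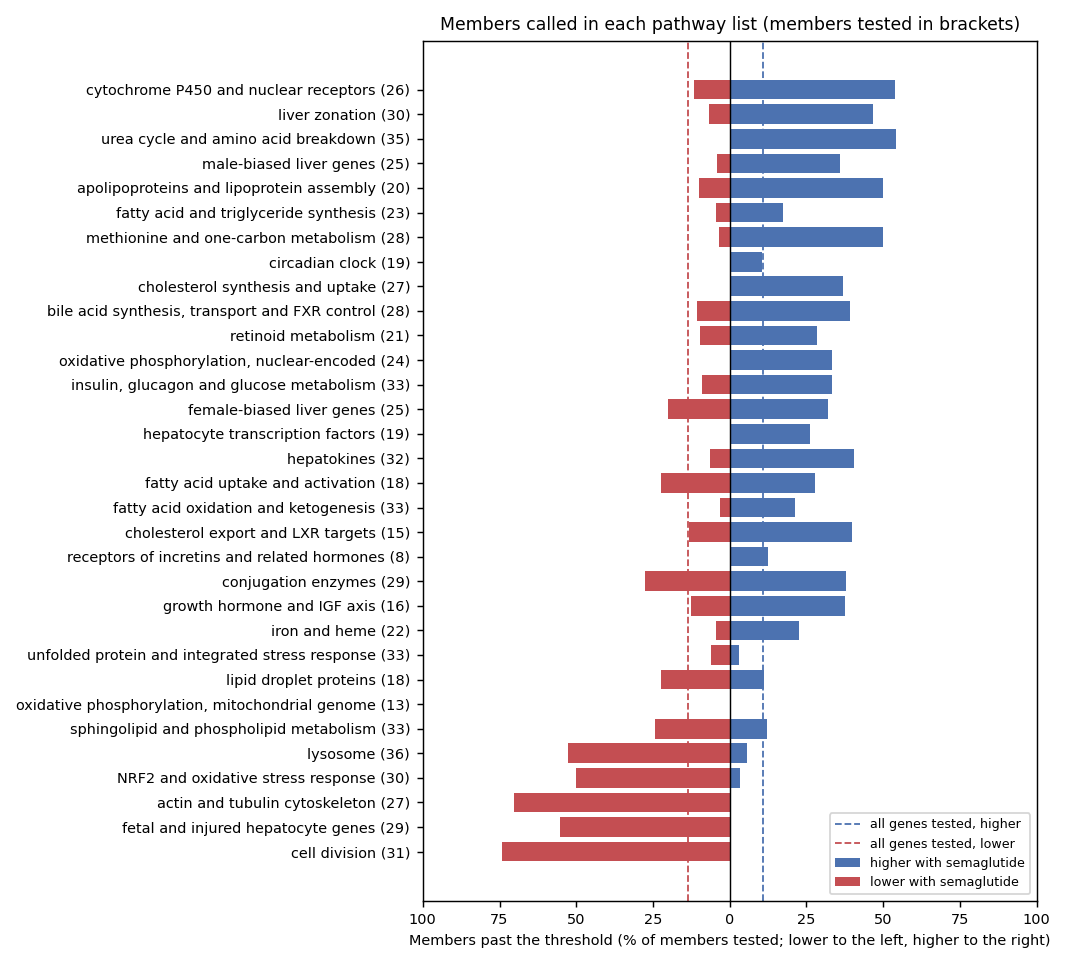
Share of the tested members of each pathway list (rows, members tested in brackets, ordered by median log2 fold change) that were called lower (left) or higher (right) with semaglutide at 24 weeks, in % of members. Dashed lines give the shares over all genes tested, 13.6% lower and 10.8% higher, and 23 of 31 cell division genes lie to the left while 19 of 35 genes of the urea cycle and amino acid breakdown lie to the right.

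Genes of the NRF2 and oxidative stress response were lower with semaglutide. Of 30 members tested, 15 fell and 1 rose (Sod1, log2 fold change 0.64, a call that ended with library totals and was 0.498 (SE 0.20, edgeR adjusted p = 0.0664) without semaglutide mouse 2), against 13.6% and 10.8% of all genes, with a list median of -0.43 on the log2 scale. Cbr3 (ENSMUSG00000022947, chromosome 16 of GRCm38 from 93683215 to 93690990), a carbonyl reductase that uses NADPH, was at 15.5, 79.5 and 254 CPM (lowest, median and highest) in vehicle mice and at 1.83, 3.87 and 7.72 CPM in semaglutide mice. All semaglutide livers lay below all vehicle livers, with a log2 fold change of -4.54 (SE 0.45, edgeR adjusted p = 9.23e-12), and chow-fed livers had a median of 0.628 CPM. Srxn1, which repairs oxidised peroxiredoxins, had 119, 349.6 and 824 CPM with vehicle and 44.5, 55.5 and 73.7 CPM with semaglutide. Its 2 groups did not overlap either, and the difference was a log2 fold change of -2.60 (SE 0.35, edgeR adjusted p = 7.98e-08). Nqo1, a quinone reductase, was at 10.5, 30.1 and 71.8 CPM and 5.16, 8.24 and 12.1 CPM, with 6 of 8 treated mice below every vehicle mouse and a log2 fold change of -1.83 (SE 0.22, edgeR adjusted p = 2.55e-09). Gsr, which regenerates reduced glutathione, was at 60.7, 78.1 and 144 CPM and 40.2, 44.6 and 53.9 CPM without overlap, and fell by 0.87 (SE 0.12, edgeR adjusted p = 4.33e-08) on the log2 scale.

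The members were not all lower to the same extent. Among glutathione genes 4 of 5 fell, and apart from Gsr these were Gclc (-1.29) of the rate-limiting synthesis step, Slc7a11 (-3.36), the cystine importer, and Gss. All 6 genes of enzymes that make or use NADPH fell, among them Pgd (-1.28), G6pdx (-0.67) and Taldo1 (-0.51) of the pentose phosphate pathway. Of 11 genes for thioredoxin and the removal of peroxides, 4 fell, Txnrd1 (-0.70) among them. Of 6 genes for quinones, heme and iron only Nqo1 passed, and Fth1, which encodes a ferritin chain and did not pass, was at 1784, 2267 and 3136 CPM with vehicle and 1708, 1928 and 2252 CPM with semaglutide. Nfe2l2 and Keap1, which encode NRF2 and its inhibitor, did not pass. Gpx2 (ENSMUSG00000042808, chromosome 12 of GRCm38 from 76792333 to 76795554, overlapping Fntb on the other strand), a glutathione peroxidase best known from the gut, was not on the list but was among the 12 largest falls. It was at 1.53, 4.49 and 20.5 CPM with vehicle and at 0.0671, 0.253 and 0.618 CPM with semaglutide, a log2 fold change of -4.69 (SE 0.62, edgeR adjusted p = 5.08e-08).

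The antioxidant response element, to which NRF2 binds, has the core TGACNNNGC, searched on both strands. This core was found in the promoters (250 bases before to 50 after a start, RefSeq, GRCm38.p6) of 9 of 26 list members that have a promoter in the table, 4 of the 13 that were lower and 5 of the 13 others. It was found for 14% of all genes with a promoter and 16.7% of those tested. Windows of 30 bases upstream of 2 of the lower genes are shown because they hold this core, on the strand opposite to the gene and in capitals. The first lies at chr10:82859104-82859133 and the second at chrX:74428918-74428947, both printed along the gene's strand (+ for Txnrd1, - for G6pdx).
Txnrd1: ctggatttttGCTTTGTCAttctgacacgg
G6pdx: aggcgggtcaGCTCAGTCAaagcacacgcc

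**Figure D2:**
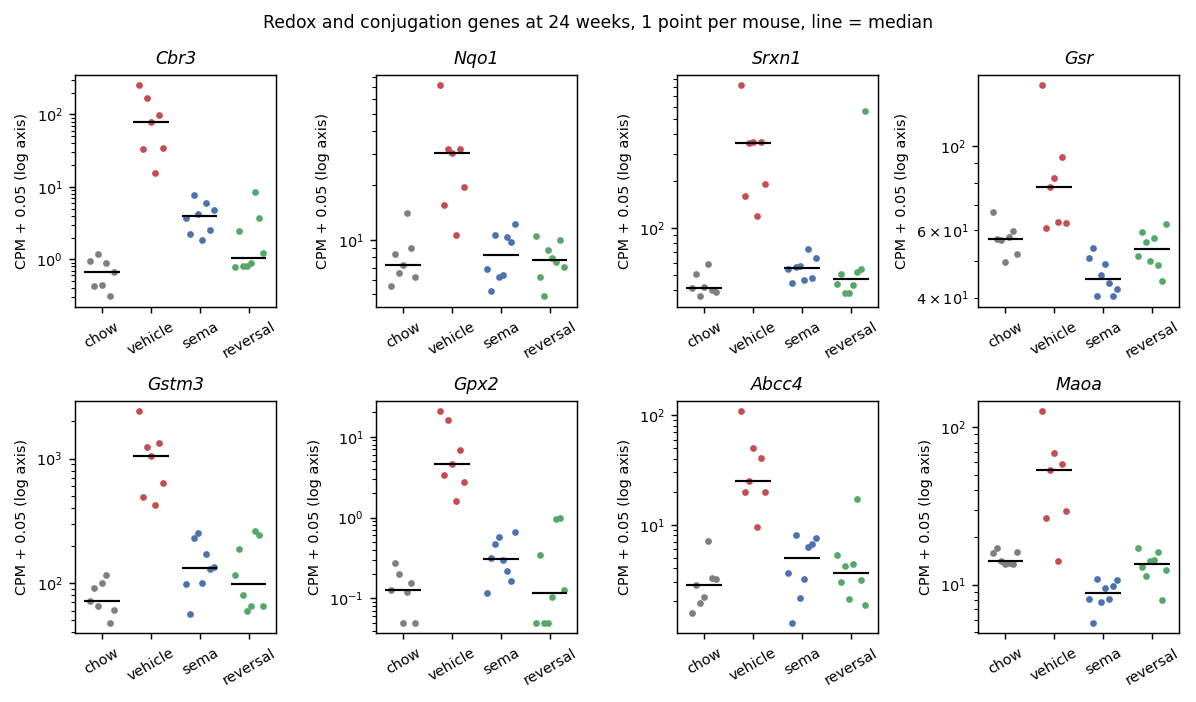
CPM (log axis, 0.05 added) of 8 redox and conjugation genes at 24 weeks in chow-fed, vehicle, semaglutide (sema) and chow reversal mice, 1 point per mouse with the median as a line. For Cbr3 the vehicle mice spread from 15.5 to 254 CPM, and the semaglutide mice lie between 1.83 and 7.72 CPM.

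Enzymes that conjugate drugs, bilirubin and lipid peroxides split into groups that rose and groups that fell. Of 29 members tested, 11 rose and 8 fell, and with library totals 3 rose and 9 fell. Under library totals 511 of all 14904 genes rose and 4337 fell. With the library sets (consecutive library numbers) as a block 7 rose and 8 fell. Wherever it is cited, the fit with this block also leaves out the 3 second-series libraries, semaglutide mouse 8 among them. All 3 glutathione transferases of the mu class on the list fell, and Gstm3 (ENSMUSG00000004038, chromosome 3 of GRCm38 from 107963696 to 107969283) was at 425, 1051 and 2395 CPM with vehicle and 55.8, 132 and 251 CPM with semaglutide. Its groups did not overlap, with a log2 fold change of -2.89 (SE 0.35, edgeR adjusted p = 3.61e-09). Gstm1, the most abundant of these at 2192, 4762 and 11209 CPM and 1422, 2216 and 3114 CPM, fell by 1.24 (SE 0.20, edgeR adjusted p = 4.23e-06) on the log2 scale, though only 4 of 8 treated mice lay below every vehicle mouse. Gstm4 fell by 1.14 and Ugdh, which makes the sugar donor of glucuronidation, by 1.08. The alpha-class genes are close relatives, as are those of the mu class, and reads may be split between them. Gsta2 fell by 1.60. Of 4 Gsta genes 3 fell and 1 rose, and their summed CPM had medians of 1678 and 1752 CPM (log2 difference 0.01, p = 0.95 in a 2-sided exact permutation test over 7 and 8 mice). Of 5 sulfation genes 4 rose. Sult1e1, the estrogen sulfotransferase, which is counted among female-biased genes, was between 9.93 and 34.97 CPM with vehicle and between 0.437 and 9.72 CPM with semaglutide, a log2 fold change of -2.495 (SE 0.57, edgeR adjusted p = 0.000799).

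Most cytochrome P450 genes of family 2 were higher. Of 26 members of the P450 and nuclear receptor list, 14 rose and 3 fell. Among the 15 genes of family 2, 10 rose, 1 fell and 4 did not pass. With library totals alone 10 of the 26 rose and 4 fell. Cyp2e1 (ENSMUSG00000025479, chromosome 7 of GRCm38 from 140763739 to 140774987), which oxidises ethanol and is among the most abundant P450 genes, was at 2298, 2737 and 3636 CPM with vehicle and 3896, 5875 and 8074 CPM with semaglutide. The groups did not overlap, with a log2 fold change of 1.08 (SE 0.20, edgeR adjusted p = 5.84e-05). Cyp2c37 was at 30.5, 70.5 and 131 CPM and 135, 294 and 415 CPM, also without overlap, and rose by 1.93 (SE 0.39, edgeR adjusted p = 0.000145) on the log2 scale. The Cyp2c genes are a cluster of close relatives, and the sum of all 13 tested was also higher, with medians of 1411 and 2577 CPM (log2 difference 0.88, p = 0.000311 in a 2-sided exact permutation test). Of the 13, 9 had been called higher in the same livers, so the test of the sum is not separate support. Cyp2d26 (0.69) and Cyp2j5 (0.58) rose as well. Of the 3 genes of family 1, Cyp1a1 (-1.76) and Cyp1b1 (-1.001) fell and Cyp1a2 did not pass. Cyp3a11, the most abundant of the members that did not pass, was at 1245, 2200.4 and 3721 CPM and 873, 2732 and 4140.1 CPM. Nr1i3, the receptor CAR that controls many of these genes, rose by 1.08 (SE 0.23, edgeR adjusted p = 0.000335).

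**Figure D3:**
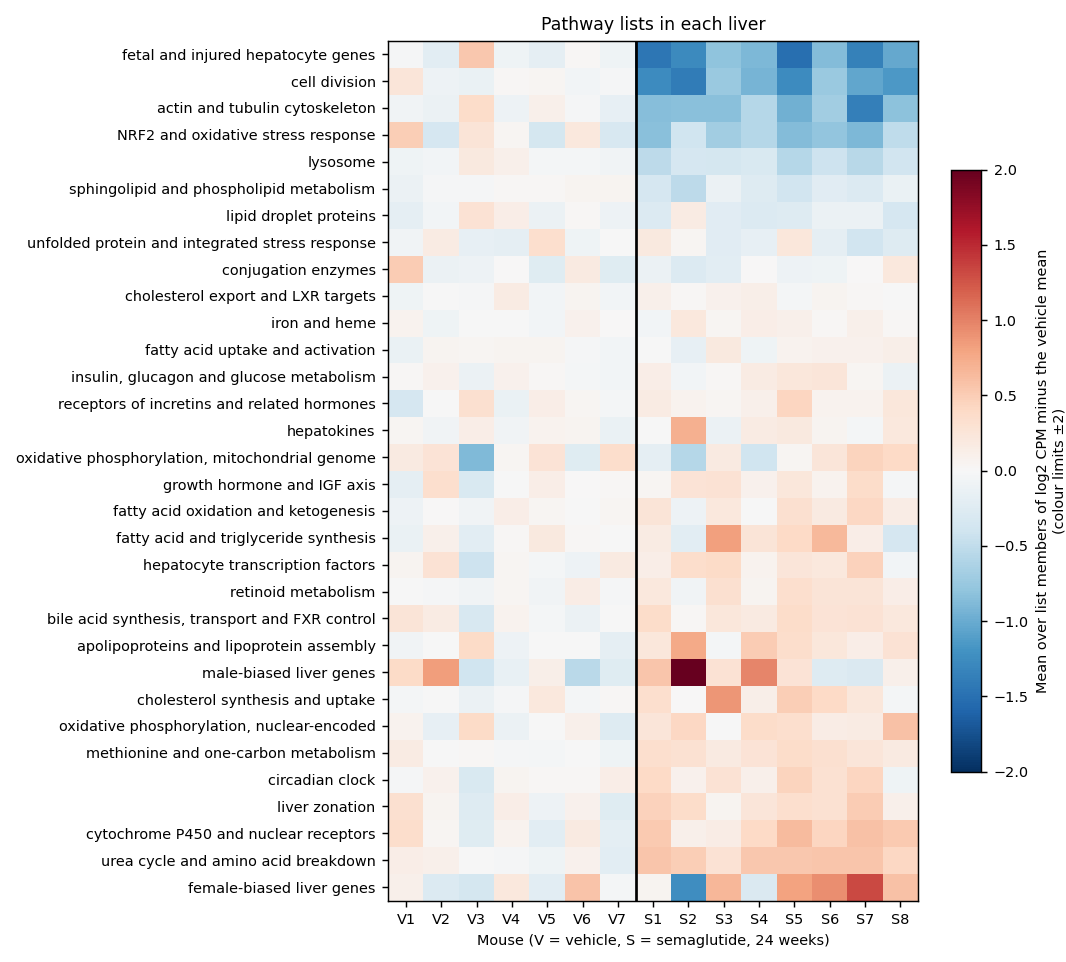
Mean log2 CPM of the tested members of each pathway list (rows) relative to the vehicle mean in each of the 7 vehicle livers (V1 to V7) and 8 semaglutide livers (S1 to S8), with colours limited to 2 on the log2 scale in each direction. Cell division, the cytoskeleton and the fetal and injured hepatocyte genes are lower in all semaglutide livers, and the male-biased list is highest in semaglutide mouse 2.

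The 12 largest falls included genes that were close to 0 in chow-fed livers, and apart from Zc3h11a the highest chow-fed median among them was that of Cbr3 (0.628 CPM). The 12 were Tekt5, Cacna2d4, Eps8l3, Slc1a1, Mfsd4a, Guca2b, Zc3h11a, Gpx2, Gipc2, Il1f9, Styk1 and Cbr3. Tekt5 (ENSMUSG00000039179, chromosome 16 of GRCm38 from 10357948 to 10395490), a tektin known from sperm flagella, was at 1.58, 16.3 and 43.9 CPM with vehicle and 0, 0.257 and 0.843 CPM with semaglutide. The groups did not overlap, with a log2 fold change of -5.76 (SE 0.65, edgeR adjusted p = 7.68e-10), and the summed counts of 2370 and 41 give a ratio of 49.7 (95% exact counting interval 36.5 to 69.4, which covers counting error only). Il1f9 (ENSMUSG00000044103, chromosome 2 of GRCm38 from 24186476 to 24193568), which encodes the cytokine IL-36 gamma, was at 1.45, 10.5 and 24.6 CPM and 0, 0.393 and 0.603 CPM, with a log2 fold change of -4.67 (SE 0.46, edgeR adjusted p = 9.14e-12). Gipc2 fell by 4.68, Styk1 by 4.67, Slc1a1, a glutamate transporter, by 5.01 and Mfsd4a by 4.84 on the log2 scale. Cacna2d4, Eps8l3 and Guca2b had 2, 3 and 5 counts summed over the semaglutide livers and 135, 140 and 177 over the vehicle livers, so vehicle was 57.99 times (15.8 to 484), 40.1 times (13.4 to 197) and 30.4 times (12.8 to 94.8) higher. Zc3h11a is listed under 2 identifiers that overlap on the same strand, and the other identifier moved the other way. Their summed level was 43.7 to 63.1 CPM with vehicle and 52.8 to 68.6 CPM with semaglutide, so no fold is given for it.

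The vehicle mice were not alike in these genes. Vehicle mouse 1 was the highest of the 7 in 11 of the 12 genes and vehicle mouse 5 the lowest in 11 of 12. Without vehicle mouse 1 the log2 fold change of Cbr3 was -4.09 (SE 0.43, edgeR adjusted p = 1.77e-10), that of Tekt5 -5.41 (SE 0.66, edgeR adjusted p = 1.04e-08) and that of Srxn1 -2.20 (SE 0.34, edgeR adjusted p = 2.11e-06). Without semaglutide mouse 8 they were -4.57 (SE 0.48, edgeR adjusted p = 8.08e-11), -5.96 (SE 0.70, edgeR adjusted p = 2.71e-09) and -2.63 (SE 0.37, edgeR adjusted p = 2.7e-07).

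Genes of the cell division cycle were lower with semaglutide. Of 31 members tested 23 fell and 0 rose, with a median log2 fold change of -1.29, and the count was 22 to 26 under the 8 other ways of fitting. All 8 genes of mitosis and proliferation fell. Top2a (ENSMUSG00000020914, chromosome 11 of GRCm38 from 98992943 to 99024189), which untangles DNA, was at 5.14, 6.55 and 8.13 CPM with vehicle and 1.05, 2.18 and 3.74 CPM with semaglutide. The groups did not overlap, with a log2 fold change of -1.53 (SE 0.28, edgeR adjusted p = 2.63e-05). Kif20a, a mitotic kinesin that overlaps Cdc23 on the other strand, was at 2.01, 3.77 and 6.997 CPM and 0.611, 0.907 and 1.69 CPM, again without overlap, and fell by 1.92 (SE 0.25, edgeR adjusted p = 4.28e-08). Cyclin and kinase genes fell in 8 of 11 cases, among them Aurka (-1.54), Plk1 (-1.73), Ccnb2 (-1.498) and Cdk1 (-1.40). Of the 8 replication genes 5 fell, and Pcna, the sliding clamp, was at 36.6, 39.4 and 44.9 CPM and 29.9, 34.7 and 48.1 CPM and did not pass. Ccnd1, which acts earlier in the cycle, was at 54.3, 72.3 and 98.9 CPM and 31.4, 45.2 and 91.7 CPM and did not pass. Cdkn1a, which encodes the arrest factor p21, fell as well, by 1.29. Chow-fed livers had a median of 0.488 CPM of Top2a and 0.828 CPM of Mki67.

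The word TTTGAA, known as the cell cycle homology region of genes expressed in G2 and mitosis, was searched on both strands of the same promoters. It was present for 10 of the 24 cell division genes with a promoter, all 10 of them among the 18 that were lower, and for 0 of the 6 others. It was present for 20.2% of all genes with a promoter and 15% of those tested. The word CCAAT was present for 20 of the 24, against 41.1% of all and 42.8% of tested genes. Windows of 30 bases upstream of the start are shown with this word in capitals for 5 of the genes that fell, along the strand of each gene, on GRCm38.p6 from RefSeq. Cdk1 is at chr10:69352913-69352942 (- strand), Ccnb2 at chr9:70421704-70421733 (- strand), Top2a at chr11:99024195-99024224 (- strand), Mki67 at chr7:135716460-135716489 (- strand) and Prc1 at chr7:80294434-80294463 (+ strand).
Cdk1: ctttaccgcggcgagTTTGAAactgctggc
Ccnb2: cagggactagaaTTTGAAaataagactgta
Top2a: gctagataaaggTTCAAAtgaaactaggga
Mki67: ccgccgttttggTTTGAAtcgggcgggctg
Prc1: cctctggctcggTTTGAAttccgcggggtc
In Top2a the word is read from the other strand. The distance from the word to the start was 9 bases in Cdk1, 17 in Top2a, 24 in Prc1, 92 in Mki67 and 161 in Ccnb2.

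Actin and tubulin cytoskeleton genes fell in 19 of 27 cases and rose in 0, with a median log2 fold change of -0.75. Anxa2 (ENSMUSG00000032231, chromosome 9 of GRCm38 from 69453620 to 69491795), an annexin that links membranes to actin, was at 126, 164 and 239.6 CPM with vehicle and 25.9, 36.4 and 56.8 CPM with semaglutide. No treated liver reached the lowest vehicle liver, with a log2 fold change of -2.11 (SE 0.24, edgeR adjusted p = 7.02e-10), and chow-fed livers had a median of 10.7 CPM. S100a11 fell by 1.80, Anxa5 by 1.18, Tpm4 by 0.81 and Tubb2b, a tubulin, by 2.87. Actb, the most abundant member, was at 456, 542 and 704 CPM and 317, 410.2 and 625 CPM and did not pass (edgeR adjusted p = 0.0768). Fetal and injured hepatocyte genes fell in 16 of 29 cases and rose in 0, with a median of -0.98. Sprr1a (ENSMUSG00000050359, chromosome 3 of GRCm38 from 92483952 to 92485895), a small proline-rich protein induced in injured epithelia, was at 7.15, 9.78 and 14.7 CPM and 0, 0.186 and 1.86 CPM, with a log2 fold change of -4.31 (SE 0.49, edgeR adjusted p = 7.02e-10). Ly6d, a surface protein, was at 92.3, 106 and 205 CPM and 4.15, 12.3 and 26.7 CPM, with all treated mice below all vehicle mice and a log2 fold change of -3.17 (SE 0.62, edgeR adjusted p = 9.87e-05). Golm1 fell by 1.37 and Afp, alpha-fetoprotein, by 1.46. Lcn2, the most abundant member that did not pass, was at 151, 172 and 280.4 CPM and 42.2, 66.6 and 362 CPM.

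Lysosomal genes fell in 19 of 36 cases and rose in 2, or 29 and 0 with library totals. Gusb (ENSMUSG00000025534, chromosome 5 of GRCm38 from 129989011 to 130003049), beta-glucuronidase, was at 51.4, 61.5 and 66.98 CPM and 27.6, 34.7 and 41.1 CPM without overlap and fell by 0.77 (SE 0.10, edgeR adjusted p = 2.27e-08). Lamp1 (-0.34), Ctsd (-0.62) and Cd63 (-1.55) of the lysosomal membrane and lumen were lower as well, and Ctsh (0.39), a protease, was higher. Of 16 ceramide genes 4 fell, Sptlc2 (-0.86) of the first step and Smpd3 (-1.80), a sphingomyelinase, among them. This was 25% called in either direction, against 24.3% of all genes. Of 17 phospholipid genes 4 fell, including Pla2g7 (-0.95), and 4 rose, including Etnk2 (0.75) and Pcyt2 (0.74) of phosphatidylethanolamine synthesis, and with library totals 16 of these 33 genes fell and 3 rose.

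Markers of other cell types moved in the same livers. Of 12 markers of monocyte-derived macrophages 11 fell, and their summed level was 470 to 816 CPM with vehicle and 206 to 400.4 CPM with semaglutide. Of 12 markers of activated stellate cells 6 fell (228 to 586 against 154 to 309 CPM), and of 11 of capillary and large-vessel endothelium 5 fell (199 to 286 against 163 to 311 CPM). Of 11 cholangiocyte markers 2 fell, Spp1 and Cldn4 (135 to 446 against 112 to 231 CPM). Spp1 is also on the lists of monocyte-derived macrophages and activated stellate cells, so its fall and its CPM are counted in each of them. For T and NK cells 0 of 11 passed (8.67 to 28.95 and 9.52 to 23.5 CPM) and for B and plasma cells 0 of 10 (46.0 to 172 and 40.0 to 599 CPM). Sinusoidal endothelium (366 to 474 and 366 to 501 CPM) had 2 of 12 higher, and quiescent stellate cells (514 to 657 and 420.2 to 635 CPM) had 1 of 12 in each direction. With library totals 0 rose and 3 fell for sinusoidal endothelium, and 0 rose and 6 fell for quiescent stellate cells. Kupffer cell markers were at 919 to 1360 CPM with vehicle (median 1015) and 661 to 1585 CPM with semaglutide (median 708). Of these 12 markers Marco was higher and Cd5l lower, or 1 higher and 4 lower with library totals. The call of Marco ended without semaglutide mouse 2, with values given below. Of the cholangiocyte markers 18.2% passed in either direction. For sinusoidal endothelium, quiescent stellate cells and Kupffer cells it was 16.7% each, against 24.3% of all genes. Of 5 mesothelial markers 0 passed (3.87 to 12.6 and 1.75 to 11.2 CPM). Of 4 neutrophil markers tested 1 fell (6.83 to 12.0 and 3.30 to 28.8 CPM), and of 5 erythroid markers 1 rose (199 to 762 and 314 to 1309 CPM). With library totals 0 erythroid markers rose. Of the neutrophil markers tested 25% passed in either direction and of the erythroid markers 20%, against 24.3% of all genes. Hepatocyte markers rose in 9 of 12 cases and fell in 0, with summed levels of 78291 to 100915 CPM with vehicle and 95865 to 162633 CPM with semaglutide. With library totals 6 of them rose and 0 fell. The part of these shifts in the falls of the cell division, cytoskeleton, lysosome and injury lists, or in the rises of hepatocyte genes described next, was not tested.

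Genes of amino acid breakdown and the urea cycle were higher and none was lower. Of 35 members tested 19 rose, with a median log2 fold change of 0.46, and with library totals 14 rose and 1 fell. Hpd (ENSMUSG00000029445, chromosome 5 of GRCm38 from 123171807 to 123182727, overlapping Psmd9 on the other strand), which acts in tyrosine breakdown, was at 970.5, 1404 and 1994 CPM with vehicle and 2249, 3250.3 and 3931 CPM with semaglutide. The groups did not overlap, with a log2 fold change of 1.14 (SE 0.16, edgeR adjusted p = 3.4e-07). Agxt, which removes glyoxylate, was at 73.97, 100.5 and 163 CPM and 144, 268 and 354 CPM, with 7 of 8 treated livers above all vehicle livers and a log2 fold change of 1.33 (SE 0.20, edgeR adjusted p = 6.31e-07). Of 7 urea cycle genes 5 rose, among them Ass1 (0.62), argininosuccinate synthase. Gls2 (0.80), the liver glutaminase, and Haao (0.89) of tryptophan breakdown rose, and Tdo2, the first enzyme of that route, did not pass at 556, 910.1 and 1141 CPM and 668, 1076 and 1917 CPM.

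The methionine cycle and one-carbon genes rose in 14 of 28 cases, with Mthfd2 (-0.96), a mitochondrial folate enzyme, the only fall, and with library totals 9 rose and 6 fell. Cdo1 (ENSMUSG00000033022, chromosome 18 of GRCm38 from 46713193 to 46728395), which turns cysteine into the precursor of taurine, was at 739.9, 873 and 948 CPM and 962, 1502 and 1772 CPM without overlap, with a log2 fold change of 0.75 (SE 0.11, edgeR adjusted p = 9.63e-07). Cbs, which starts transsulfuration, was at 288, 357 and 536 CPM and 437, 704 and 1322 CPM, with 6 of 8 treated livers above all vehicle livers, and rose by 1.03 (SE 0.19, edgeR adjusted p = 4.62e-05). Gnmt (0.89) and Ahcy (0.72), which use and clear S-adenosylmethionine products, rose. Bhmt, the most abundant of the members that did not pass, was at 1354, 1857 and 2462 CPM with vehicle and 1027, 1723 and 2484 CPM with semaglutide, while chow-fed livers had a median of 4570.1 CPM.

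Fat metabolism genes moved in both directions. Of the 3 droplet fusion genes Cidec and Cidea fell and Cideb rose. Cidec (ENSMUSG00000030278, chromosome 6 of GRCm38 from 113424634 to 113435760), which makes droplets fuse, was at 51.7, 89.6 and 108 CPM with vehicle and 14.9, 27.4 and 48.2 CPM with semaglutide. The groups did not overlap, with a log2 fold change of -1.52 (SE 0.40, edgeR adjusted p = 0.00314). Cidea, a relative, fell by 1.33 (SE 0.45, edgeR adjusted p = 0.0223), and without semaglutide mouse 4 its change was -1.20 (SE 0.46, edgeR adjusted p = 0.0503) and without vehicle mouse 4 -1.15 (SE 0.46, edgeR adjusted p = 0.0649). Cideb rose by 0.39 (SE 0.13, edgeR adjusted p = 0.0209), but without semaglutide mouse 2 it was 0.35 (SE 0.14, edgeR adjusted p = 0.0556) and without vehicle mouse 7 0.36 (SE 0.14, edgeR adjusted p = 0.0529). Plin2, a droplet coat protein, fell by 0.52. Over 18 droplet genes 4 fell and 2 rose, and with library totals 8 fell and 0 rose. Adipocyte markers, which include Cidec, fell in 2 of 4 cases with summed levels of 107 to 211 CPM and 50.8 to 87.7 CPM, while Adipoq was at 0 throughout.

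Lpl (ENSMUSG00000015568, chromosome 8 of GRCm38 from 68880491 to 68907448), the lipase that frees fatty acids from lipoproteins, was at 147, 182 and 292 CPM and 50.2, 78.4 and 112 CPM without overlap, with a log2 fold change of -1.25 (SE 0.36, edgeR adjusted p = 0.0076). Cd36 (-0.67), a fatty acid receptor, and Fabp4 (-1.18), a binding protein of adipocytes and macrophages, also fell. Fabp1 (0.91), the liver form, and Slc27a5 (0.72), a transporter and bile acid ligase of hepatocytes, rose, as did Vldlr (1.07). Among 23 genes of fatty acid and triglyceride synthesis 4 rose and 1 fell, or 2 and 2 with library totals. This was 21.7% called in either direction, against 24.3% of all genes. Dgat2 (ENSMUSG00000030747, chromosome 7 of GRCm38 from 99153658 to 99182719), which makes triglyceride, was at 429, 458 and 501 CPM and 502, 664 and 893 CPM without overlap and rose by 0.55 (SE 0.11, edgeR adjusted p = 0.000103). Its fellow rises were Mlxipl (0.69), which encodes the carbohydrate sensor ChREBP, Srebf1 (0.77) and Fads1 (0.51), the last 2 lost with library totals, and Scd2 fell by 1.19. None of the 7 genes of fatty acid synthesis itself passed. Of 33 genes of oxidation and ketogenesis 7 rose and 1 fell, or 3 and 3 with library totals. The share called in either direction, 24.2%, was that of all genes (24.3%). Cyp4a14 (ENSMUSG00000028715, chromosome 4 of GRCm38 from 115486200 to 115496142), a microsomal hydroxylase and PPAR-alpha target, was at 43.1, 111 and 143 CPM and 119.6, 427 and 839 CPM, with 7 of 8 treated livers above all vehicle livers and a log2 fold change of 2.08 (SE 0.38, edgeR adjusted p = 3.73e-05). Acot1 (1.10) and Acaa2 (0.54) rose, and Acadvl rose by 0.45 but by 0.35 (SE 0.15, edgeR adjusted p = 0.0789) without semaglutide mouse 2.

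Cholesterol synthesis and uptake genes rose in 10 of 27 cases and fell in 0, with a median of 0.33, or 4 and 0 with library totals. Tm7sf2 (ENSMUSG00000024799, chromosome 19 of GRCm38 from 6062821 to 6068373, overlapping Vps51 on the same strand), a sterol reductase, was at 24.5, 27.03 and 30.4 CPM and 32.1, 47.9 and 63.01 CPM without overlap, with a log2 fold change of 0.84 (SE 0.13, edgeR adjusted p = 1.02e-06). Ebp (0.70), Insig1 (1.10) and Fdft1 (0.46, lost with library totals) rose. Chow-fed livers stood far higher, with a median of 174 CPM of Tm7sf2, and chow reversal livers at 158 CPM. Against chow reversal, 25 of the 27 genes were lower with semaglutide and 0 higher (8.65% of all genes lower), with a median of -1.64, and Tm7sf2 differed by -1.69 (edgeR adjusted p = 2.57e-18). Genes of cholesterol export and LXR targets were mixed, 6 higher and 2 lower of 15, and 3 and 6 with library totals. Lcat (0.68) and Soat2 (0.62) of cholesterol ester formation rose, while Abcg1 (-0.97) and Soat1 (-0.85), which macrophages also use, fell. Abcg8 (0.73) and Abcg5 (0.54, lost with library totals), the adjoining genes of the exporter into bile, rose. Among 20 apolipoprotein and lipoprotein assembly genes 10 rose, or 6 with library totals, with Lipc (0.91), Tm6sf2 (0.65), Apoh (0.67) and Apom (0.90) at their head, and Apoa4 (-0.99) and Sort1 (-0.66) fell. The fall of Apoa4 was -0.87 (SE 0.35, edgeR adjusted p = 0.0567) without semaglutide mouse 8 and -0.80 (SE 0.35, edgeR adjusted p = 0.0738) without vehicle mouse 3, and that of Sort1 was -0.54 (SE 0.22, edgeR adjusted p = 0.0691) without vehicle mouse 7. Apoe at 20104, 24277 and 53039 CPM and 22493, 32737 and 59751 CPM and Apob at 2205, 3991 and 4530.3 CPM and 2743, 3608 and 4259 CPM did not pass.

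Among bile acid genes, rises included uptake from blood and falls were in export to blood. Of 28 members 11 rose and 3 fell, or 6 and 4 with library totals. Slc10a1 (ENSMUSG00000021135, chromosome 12 of GRCm38 from 80953183 to 80968705), which takes bile acids up from blood, was at 111, 142 and 188 CPM and 256.2, 352 and 441 CPM without overlap, with a log2 fold change of 1.26 (SE 0.20, edgeR adjusted p = 3.09e-06). Exporters to blood went down in all 3 cases tested, and Abcc4 (ENSMUSG00000032849, chromosome 14 of GRCm38 from 118482692 to 118706219), an efflux pump that is also an NRF2 target, was at 9.47, 25.1 and 108 CPM and 1.22, 4.896 and 8.02 CPM without overlap and fell by 3.005 (SE 0.39, edgeR adjusted p = 4e-08). The other 2, Abcc3 and Slc51b, were no longer called without semaglutide mouse 8, when 10 members were higher and 1 lower. Synthesis genes rose in 4 of 12 cases, with Cyp27a1 at 0.57 and Cyp7b1 at 0.99, and 0 fell. Klb (0.85), the co-receptor for FGF15, and Nr0b2, which encodes the repressor SHP, rose. Nr0b2 was at 12.7, 18.97 and 43.6 CPM and 17.3, 57.6 and 114 CPM, with 6 of 8 treated livers above all vehicle livers and a log2 fold change of 1.22 (SE 0.38, edgeR adjusted p = 0.0133), and 1.000 (SE 0.38, edgeR adjusted p = 0.0504) without semaglutide mouse 5. Nr1h4, which encodes the bile acid receptor FXR, was at 49.7, 77.7 and 88.5 CPM and 73.2, 87.2 and 113 CPM and did not pass.

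Glucose genes rose in 11 of 33 cases and fell in 3, or 3 and 6 with library totals. Gckr (ENSMUSG00000059434, chromosome 5 of GRCm38 from 31297443 to 31327314), which holds glucokinase in the nucleus, was at 169.7, 205 and 234 CPM and 273, 316 and 335 CPM without overlap, with a log2 fold change of 0.58 (SE 0.08, edgeR adjusted p = 5.23e-07). Hexokinases other than glucokinase fell, and Hk2 was at 5.77, 11.3 and 13.7 CPM and 1.59, 2.498 and 4.78 CPM without overlap, with a log2 fold change of -1.88 (SE 0.33, edgeR adjusted p = 1.64e-05). Hk3, which overlaps Unc5a on the other strand, fell by 0.73. Fbp1 of glucose production rose by 0.35, a call lost with library totals, while Pck1, also of glucose production, at 557, 790.2 and 1613 CPM and 568, 1059.8 and 1854 CPM did not pass. Gcgr, the glucagon receptor, rose by 0.55 and was the only one of 8 receptors of incretins and related hormones to pass.

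Prlr (ENSMUSG00000005268, chromosome 15 of GRCm38 from 10177238 to 10349180), the prolactin receptor, was at 16.8, 27.99 and 38.8 CPM with vehicle and 46.7, 81.5 and 121 CPM with semaglutide, with no overlap and a log2 fold change of 1.52 (SE 0.23, edgeR adjusted p = 1.42e-06). Igfbp2 (1.12) and Igfals (0.74), carriers of IGF1, also rose, and Igf2r fell by 0.62. Of 16 genes of the growth hormone and IGF axis 6 rose and 2 fell, or 3 and 3 with library totals. Female-biased genes went both ways, 8 higher and 5 lower of 25. Cyp2c40 and Cyp2c69 are near-identical genes. Cyp2c40 was at 0.0956, 0.6596 and 1.51 CPM with vehicle and 1.18, 4.37 and 20.6 CPM with semaglutide, with 7 of 8 treated livers above all vehicle livers and a log2 fold change of 3.28 (SE 0.81, edgeR adjusted p = 0.00174). Cux2, a transcription factor of female liver, was at 0.168, 0.256 and 0.478 CPM and 0.3496, 0.892 and 8.302 CPM, with a log2 fold change of 2.996 (SE 0.54, edgeR adjusted p = 2.5e-05). In the same list Cyp2a4 was between 56.7 and 1765 CPM with vehicle and between 3.23 and 131 CPM with semaglutide, a log2 fold change of -3.07 (SE 0.79, edgeR adjusted p = 0.00264), while chow-fed livers had a median of 0.906 CPM. Hao2 (2.22) and Slc22a26 (2.26) rose.

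Male-biased genes rose in 9 of 25 cases and fell in 1. With library totals alone 7 rose and 3 fell, and with the library sets as a block 7 rose and 2 fell. C8b (1.24), Mup3 (1.52), Cyp7b1 and Elovl3 (1.84), an elongase, kept their calls in every fit without 1 of the 15 livers. The largest rises did not. Hsd3b5 (ENSMUSG00000038092, chromosome 3 of GRCm38 from 98618634 to 98630252), a steroid dehydrogenase of male liver, was at 0, 0.0471 and 0.894 CPM with vehicle and 0.0773, 0.791 and 61.6 CPM with semaglutide, and the highest value was that of semaglutide mouse 2. Its change was a log2 fold change of 5.39 (SE 1.504, edgeR adjusted p = 0.00582) and 2.84 (SE 1.62, edgeR adjusted p = 0.217) without this mouse. Mup7, a major urinary protein gene, was at 10.9, 45.3 and 532 CPM and 153, 353 and 10629 CPM, the highest again in mouse 2, with log2 fold changes of 3.93 and 1.93 (SE 0.93, edgeR adjusted p = 0.133) without it. Serpina1e was at 17.9, 55.9 and 119.8 CPM and 30.4, 94.02 and 4129 CPM, with log2 fold changes of 3.22 and 0.54 (SE 0.58, edgeR adjusted p = 0.558) without it, and Marco, a scavenger receptor, at 0.239, 2.64 and 5.84 CPM and 1.47, 3.28 and 272 CPM, with 3.73 and 1.15 (SE 0.92, edgeR adjusted p = 0.406) in the same order. Mouse 2 was the highest treated liver in 9 of the 12 largest rises, and 8 of these 12 (Mup1, Mup2, Mup9 and Mup15 beside the 4 above) lost their call without it. The 4 that kept it were Cyp2c40, Cyp2c69, Cux2 and Mup12 (2.80). Mup genes share reads, and the sum of the 22 tested was at a median of 19623 CPM with vehicle and 23428 CPM with semaglutide, with 103258 CPM in the highest treated liver (log2 difference 0.54, p = 0.164 in a 2-sided exact permutation test). Summed over the 5 Serpina1 genes, which share reads as well, the level was 8736 to 11085 CPM with vehicle and 13678 to 26837 CPM with semaglutide (log2 difference 0.83, p = 0.000311 in the same exact permutation test). All 5 had been called higher in the same livers, so the test of their sum is not separate support. Mup20, the most abundant male-biased gene, was at 8424, 13927 and 15578 CPM and 3430.2, 7769.9 and 14651 CPM and did not pass.

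**Figure D4:**
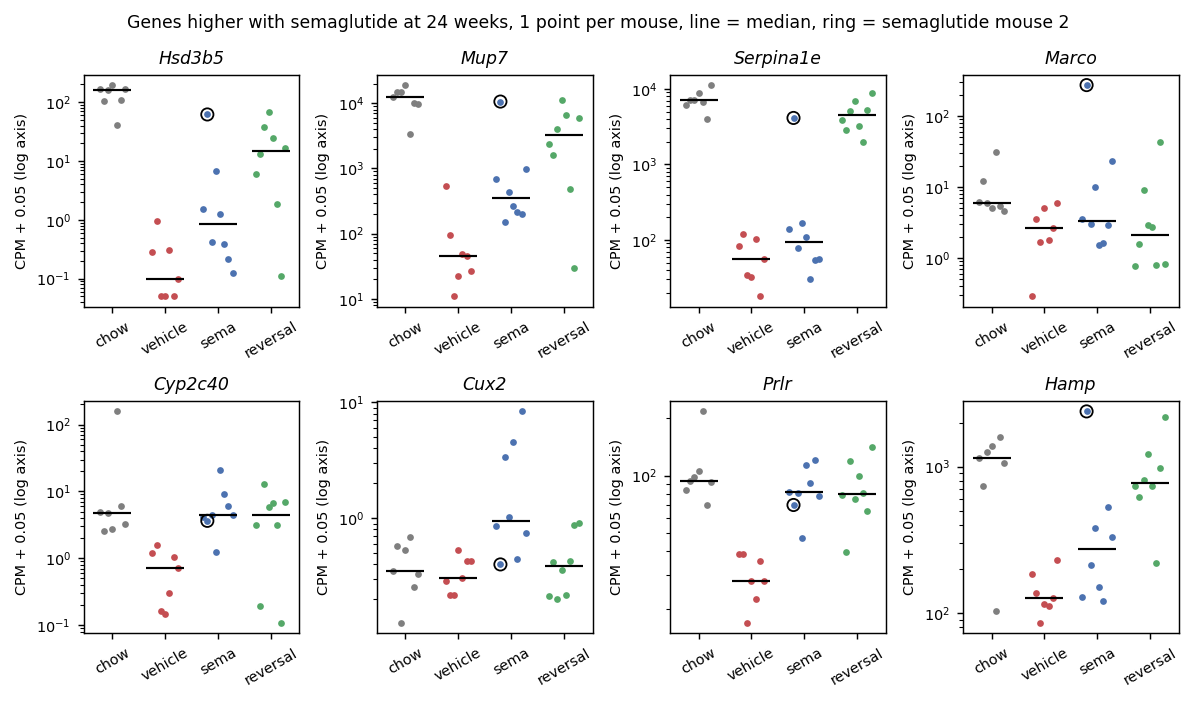
CPM (log axis, 0.05 added) of 8 genes that were higher with semaglutide at 24 weeks in chow-fed, vehicle, semaglutide (sema) and chow reversal mice, 1 point per mouse with the median as a line and semaglutide mouse 2 ringed. The ringed mouse carries the highest treated value of Hsd3b5 (61.6 CPM), Mup7, Serpina1e, Marco and Hamp but not of Cyp2c40, Cux2 or Prlr.

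Among 32 hepatokines, proteins that the liver secretes into blood, 13 rose and 2 fell, or 6 and 3 with library totals. Ahsg (0.62), Smoc1 (0.48, lost with library totals), Rbp4 (0.55), which carries retinol, and Angptl8 (1.31, and 1.09 (SE 0.42, edgeR adjusted p = 0.0544) without semaglutide mouse 2) rose, and Sparcl1 (-1.13) and Adm (-0.90) fell. Hamp, which encodes the iron hormone hepcidin, was at 85.8, 127 and 232 CPM and 120.3, 273 and 2382 CPM, with a log2 fold change of 1.90 (SE 0.52, edgeR adjusted p = 0.00512) and 0.93 (SE 0.47, edgeR adjusted p = 0.153) without semaglutide mouse 2. Of 22 iron and heme genes 5 rose and 1 fell, or 1 and 5 with library totals. The share called in either direction was 27.3%, against 24.3% of all genes. Of 21 retinoid genes 6 rose and 2 fell, or 4 and 6 with library totals, led by Rdh7 (0.63) and Ces1e (0.81). Hepatocyte transcription factors rose in 5 of 19 cases, Klf15 (0.78) and Hnf4a (0.53, lost with library totals) among them, and 0 fell, with 2 higher under library totals. The share of these factors called in either direction was 26.3%, against 24.3% of all genes. Zonation genes rose in 14 of 30 cases and fell in 2, or 8 and 5 with library totals, with 9 of 18 pericentral genes such as Lhpp (0.99) and Notum (0.79) and 5 of 12 periportal genes higher. The 2 that fell were the pericentral Slc1a4 (-1.57) and Rhbg (-1.16).

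Few members passed in several other lists. Of 33 genes of the unfolded protein and integrated stress response, Atf3 (-1.90) and Psat1 (-1.32) fell and Herpud1 (0.63, lost with library totals) rose, and 0 of 14 chaperone and folding genes passed. Of 19 clock genes, Nr1d1 (0.97), a repressor of the clock, and Cry2 (0.39) passed, while 6 passed when other groups were left out of the fit. The call of Cry2 ended when any 1 of semaglutide mice 1, 3, 5 and 7 or vehicle mice 2, 3, 5 and 7 was left out, with log2 fold changes of 0.36 (SE 0.16, edgeR adjusted p = 0.0886) without semaglutide mouse 1 and 0.41 (SE 0.16, edgeR adjusted p = 0.0508) without vehicle mouse 2. Dbp, the most abundant clock gene, was at 84.7, 127 and 172 CPM and 157, 179.7 and 241 CPM. Nuclear genes of oxidative phosphorylation rose in 8 of 24 cases, but in 0 with library totals, 1 when other groups were left out of the fit, 2 with the library sets as a block and 4 without semaglutide mouse 8. Of 13 genes of the mitochondrial genome 0 passed, and mt-Co1 was at 3953, 12969.7 and 15061 CPM and 4364, 11258 and 14952 CPM.

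The effect at 24 weeks was then set against the effect at 8 and at 16 weeks in other mice, by testing the difference itself. Between 24 and 8 weeks 9 of 14904 genes (0.0604%) differed, all with a more negative effect at 24 weeks (681 at an unadjusted p under 0.05). On simulated counts the test of this difference recovered 28 of 49 genes changed 2-fold, so differences of that size can be missed. DESeq2 called 16, of which 3 had a less negative or more positive effect at 24 weeks. With other groups left out of the fit 4 genes passed, and with the library sets as a block 3 passed, in each case with a more negative effect. The 9 genes of the main fit were Maoa, Rsad2, Il1f9, H2-T-ps, Oasl1 and Ugt1a9, and Elovl7, Ndrg1 and Nqo1, named to complete the count. Maoa (ENSMUSG00000025037, chromosome X of GRCm38 from 16619698 to 16687818), monoamine oxidase A, had vehicle medians of 9.57, 17.4 and 53.3 CPM at 8, 16 and 24 weeks and semaglutide medians of 8.69, 9.62 and 8.75 CPM. The vehicle level was higher at each later time while the semaglutide level stayed between 5.68 and 11.8 CPM in all treated mice of the 3 times. Its log2 fold change at 24 weeks was -2.61, and the difference from 8 weeks was -2.44 (SE 0.33, edgeR adjusted p = 2.05e-06). Il1f9 had vehicle medians of 0.414, 1.49 and 10.5 CPM and semaglutide medians of 0.2803, 0.349 and 0.393 CPM, a difference of -4.07 (SE 0.71, edgeR adjusted p = 0.00101). Nqo1 had vehicle medians of 11.2, 13.4 and 30.1 CPM, a difference of -1.35 (SE 0.30, edgeR adjusted p = 0.0454). Ugt1a9, whose gene shares exons with the rest of the Ugt1a cluster, went from 56.3 to 156 CPM with vehicle and from 69.3 to 67.99 CPM with semaglutide (medians at 8 and 24 weeks). Rsad2 and Oasl1, both induced by interferon, went from 8.696 to 26.97 CPM and from 12.3 to 37.5 CPM with vehicle. The elongase Elovl7 went from 3.31 to 18.4 CPM with vehicle and was at 0.671 and 0.695 CPM with semaglutide.

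**Figure D5:**
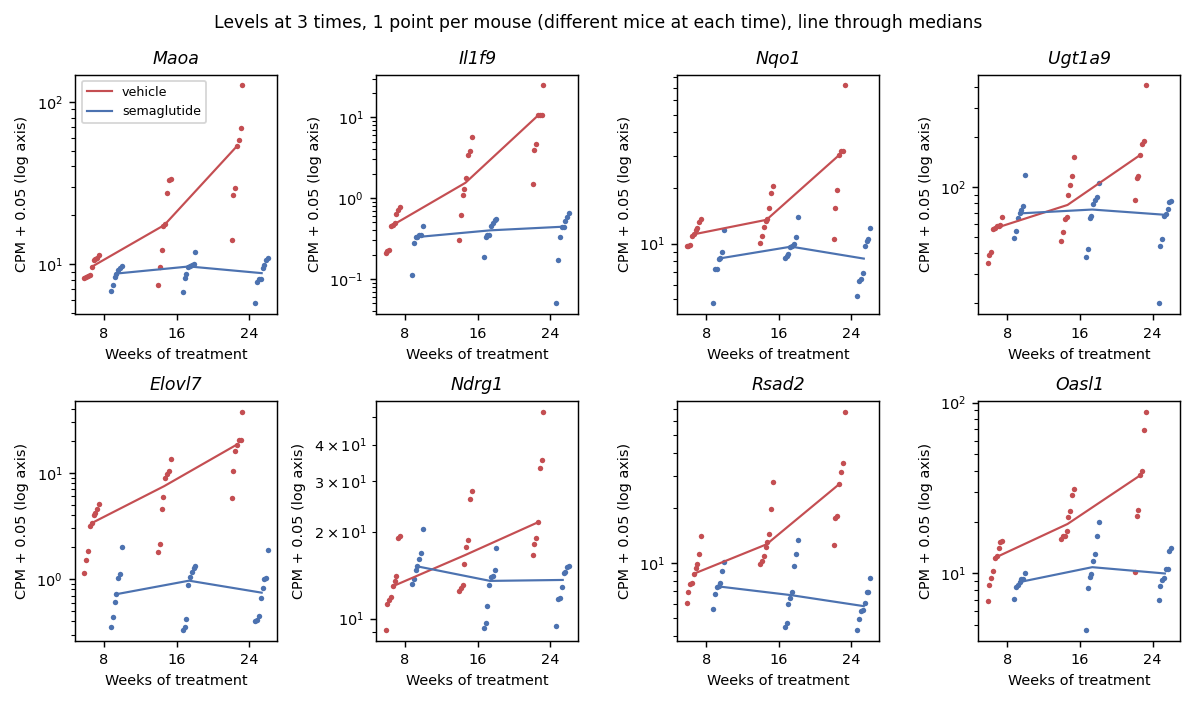
CPM (log axis, 0.05 added) of 8 of the 9 genes whose semaglutide effect differed between 24 and 8 weeks, by weeks of treatment, with 1 point per mouse and lines through the medians of the vehicle and semaglutide groups. Different mice were used at each time, and vehicle medians are highest at 24 weeks in all 8 genes, as for Maoa at 53.3 CPM, while semaglutide medians stay within a narrow range.

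Between 24 and 16 weeks 1 gene (0.00671%) differed, Flnc, a filamin of muscle (668 genes at an unadjusted p under 0.05, and 2 in DESeq2). It was at 0.469, 1.45 and 3.65 CPM with vehicle and 0, 0.111 and 0.543 CPM with semaglutide at 24 weeks, and 1 semaglutide liver at 16 weeks had 33.02 CPM while the median there was 0.127 CPM. The difference was -5.82 (SE 1.11, edgeR adjusted p = 0.0246), and 0 genes passed without semaglutide mouse 8 of 24 weeks. Of the 15 NRF2 list members lower at 24 weeks, 1 (Nqo1) passed in the difference from 8 weeks. In its own comparison the NRF2 list had 1 member lower and 0 higher at 8 weeks, where 5.62% of all genes passed (2.17% higher and 3.45% lower). It had 3 lower and 0 higher at 16 weeks, where 12.2% passed (6.35% higher and 5.81% lower), and 15 lower at 24 weeks.

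Levels of chow-fed and chow reversal livers are set beside the 2 groups without a further claim, since these contrasts share mice with the comparison above. Vehicle and chow differed in 7109 genes (47.7%), and semaglutide and chow reversal in 2439 (16.4%), of which 1150 were higher and 1289 lower with semaglutide. With other groups left out of the fit, 313 were higher and 207 lower. Medians of Cbr3 were 0.628 CPM with chow, 79.5 with vehicle, 3.87 with semaglutide and 1.004 with chow reversal, and the difference between the last 2 did not pass (log2 difference 0.82, edgeR adjusted p = 0.19). Those of Srxn1 were 41.1, 349.6, 55.5 and 47.2 CPM. Top2a stood at 0.488, 6.55, 2.18 and 1.57 CPM and Anxa2 at 10.7, 164, 36.4 and 18.99 CPM. Serpina1e stood at 7234, 55.9, 94.02 and 4474 CPM, and it was lower with semaglutide than with chow reversal (-2.99, edgeR adjusted p = 0.00315). Bhmt stood at 4570.1, 1857, 1723 and 4319.8 CPM, also lower than with chow reversal (-1.22, edgeR adjusted p = 1.2e-06). Srebf1 stood at 273, 363, 567 and 242 CPM and Cux2 at 0.301, 0.256, 0.892 and 0.335 CPM, both higher than with chow reversal (1.32, edgeR adjusted p = 4.7e-06, and 2.56, edgeR adjusted p = 0.000234). Cyp2a4 stood at 0.906, 642, 62.3 and 1.88 CPM and was higher than with chow reversal by 4.09 (edgeR adjusted p = 0.000446).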

How the data were processed

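Per the labels, each of the 77 livers (left lateral lobe) gave 1 RNA-seq library. The authors quantified reads with salmon 1.2.0 and deposited estimated counts per gene for 55487 genes. Their processing notes also name STAR 2.7.3a, GRCm38, FastQC 0.11.9, Picard and DESeq2. Per the labels the library kit was directional. The annotation release, and whether quantification used strand, are not given in the sources used here, so overlapping and antisense genes are uncertain. Of the deposited values 7.548% were fractional, and all were rounded for the tests. Rows without a symbol (346, 0.0396% of counts) were kept out of the named genes.

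All 77 libraries in 10 groups were fitted together in edgeR 4.0.16 (R 4.3.3) with TMM factors, filterByExpr, a robust quasi-likelihood fit and Benjamini-Hochberg adjustment over 14904 genes. Effects at 24 weeks were compared with those at 8 and 16 weeks by contrasts of the same fit. DESeq2 1.42.0, other scalings, filters, sample sets and fits without each mouse were alternatives. Apart from semaglutide mouse 8, mice were left out singly in the main comparison only, not in the differences between times. In simulated counts (14655 genes) all groups had the same means apart from changed genes in the 24-week semaglutide group. In the main comparison the test recovered 28 of 49 genes changed 1.5-fold, 40 of 49 changed 2-fold and 48 of 49 changed 4-fold. It called 8 of 14458 unchanged genes. In the difference from 8 weeks it recovered 14, 28 and 46 of 49 and called 11 of 14458. The simulation had far fewer changed genes than the livers and no mouse set apart from its group, so these rates need not hold there. Symbols and coordinates are from GENCODE M21, and promoters from RefSeq (GRCm38.p6).

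The members and gene lists were chosen with earlier results of these data known. Named were the up to 4 called members of smallest p per list, up to 2 abundant members that did not pass, the 12 largest rises and falls, and up to 6 genes per difference between times. Other named genes, and the summed levels of gene families with their exact permutation tests, and the promoter words searched, were chosen after values were seen. Some genes that the naming rule selects are not reported here. Replicates are separate mice.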

Additional observations from a re-analysis of the deposited data

Results flagged for a closer look

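Among the 42 genes given with the values of every group, 15 of 84 sets of 7 or 8 livers held a liver far from the others by Dixon's criterion, in 13 genes, and chance gives about 1 in 20 for independent, normally distributed sets. Several genes stood apart in the same mouse and CPM values are skewed, so that rate is no yardstick for this count. Vehicle mouse 1 stood far above the other vehicle mice for Nqo1 (71.8 CPM), Srxn1 (824 CPM), Gsr (144 CPM), Abcc4 (108 CPM), Il1f9 (24.6 CPM) and Mup7 (532 CPM). Vehicle mouse 3 stood apart for Ly6d (205 CPM) and Agxt (163 CPM), and vehicle mouse 2 for Hsd3b5 (0.894 CPM). Semaglutide mouse 2 stood far above the other treated mice for Hsd3b5 (61.6 CPM), Mup7 (10629 CPM), Marco (272 CPM), Hamp (2382 CPM) and Serpina1e (4129 CPM), and semaglutide mouse 5 for Cyp2c40 (20.6 CPM).

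The difference between the effects at 24 and at 8 weeks (24 minus 8), tested as a contrast in edgeR, was -2.44 on the log2 scale for Maoa, -2.08 for Rsad2, -4.07 for Il1f9, -2.37 for H2-T-ps, -1.59 for Oasl1, -2.03 for Ugt1a9, -2.58 for Elovl7, -1.30 for Ndrg1 and -1.35 for Nqo1. The same difference against 16 weeks was -5.82 for Flnc.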

How the results depend on the processing

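No paired analysis was possible because the labels give the mice no shared replicate numbers. Sets of consecutive library numbers, which the labels do not call batches, were used as a block instead, and 3506 genes were called. That fit also left out the 3 second-series libraries, semaglutide mouse 8 among them, so it differs from the main fit in 2 ways. Of 201 genes given with fold changes 185 were past the threshold. None of the 185 reversed in the 8 alternatives, and 150 kept their call in every alternative that tested them. In the fit with other groups left out 161 of the 185 kept it, 16 lost it and the rest were not tested. In every fit without 1 liver 159 kept their call. With library totals alone 511 genes were higher and 4337 lower than with vehicle (10.5% of calls higher, against 44.2%), 502 were lower than with chow reversal, 7768 were higher and 888 lower in vehicle than in chow, and list members were higher in 99 and lower in 221 cases. The same scaling turned the sign of Cyp3a11, which had not passed (-0.0225). With other groups left out of the fit, 948 genes were higher than with vehicle, 313 were higher and 207 lower than with chow reversal, and 4 were lower at 24 than at 8 weeks. DESeq2 gave 3 genes with a higher effect at 24 than at 8 weeks, and the library sets as a block gave 3 with a lower one. For 24 against 16 weeks 2 genes were lower in DESeq2, and 0 with no filter, with other groups left out, without semaglutide mouse 8, without the 3 second-series libraries or with the block. Without the filter 760 genes were higher than with chow reversal. Leaving out 1 liver gave 2911 (vehicle mouse 7) to 4400 (vehicle mouse 3) calls, 1295 to 2098 higher and 1616 to 2302 lower. Where a value or call moved, the cause was not tested. Counts limit genes near 0 CPM.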
